A study of Arabidopsis thaliana with 6 samples.

Results

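PORB (AT4G27440, on chromosome 4) encodes protochlorophyllide oxidoreductase B, and it was followed here through the 1 probe set that the platform annotation gives to it, of 22746 tested and 13513 given a single gene. Transcripts were measured on 1-colour Affymetrix ATH1 arrays in whole seedlings of a pair of Arabidopsis thaliana brassinosteroid mutants, both of Columbia-0 background. In bzr1-1D a dominant gain-of-function mutation keeps BZR1 active, the transcription factor that relays the brassinosteroid signal to its target genes. The det2 mutant lacks a steroid reductase needed to make brassinosteroids. Both grew for 5 days as flask cultures in liquid medium with sucrose, shaken under constant light at 22 °C. They then had a mock of a hormone treatment for 3 hours, made with 80% ethanol. The 80% is the strength of the ethanol used for the mock, and its share in the medium is not given here. Each genotype had 3 arrays, and arrays with the same number came from the same experiment, so each experiment holds 1 array of either genotype. A flask held about 15000 seeds, so each array averages a very large pool of seedlings. The question put to PORB was whether this marker of chlorophyll synthesis differs in light-grown seedlings between constant BZR1 activity and hormone shortage.

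Protochlorophyllide reductases carry out the light-dependent step of chlorophyll synthesis: on absorbing light they reduce protochlorophyllide to chlorophyllide, with NADPH as the reductant. Flowering plants have no other enzyme for this step, which is why they green only in light. Arabidopsis has 3 of them. PORA is abundant in dark-grown seedlings and its transcript declines in light, PORC is found in the light, and PORB is expressed in dark and light alike, so in continuous light it is one of the enzymes that sustain greening. PORA and PORC are not analysed here, so what follows is about PORB alone and not about the enzyme activity as a whole. The probe set has the plain suffix _at, the design class for a single transcript.

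PORB had a higher intensity in bzr1-1D than in det2 in all 3 experiments. Its intensity in experiments 1, 2 and 3 was 7161, 9402.5 and 7720.0 in bzr1-1D, against 5322, 6042 and 6253 in det2. The lowest bzr1-1D array was 1.15 times the highest det2 array, so the genotypes did not overlap, and the whole set of arrays spanned only a 1.77-fold range. Within an experiment the ratio of bzr1-1D to det2 was 1.35, 1.56 and 1.23, and the ratio of the genotype means was 1.38. The bzr1-1D array of experiment 2 was the brightest of all, and it gave the widest gap.

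**Figure D1:**
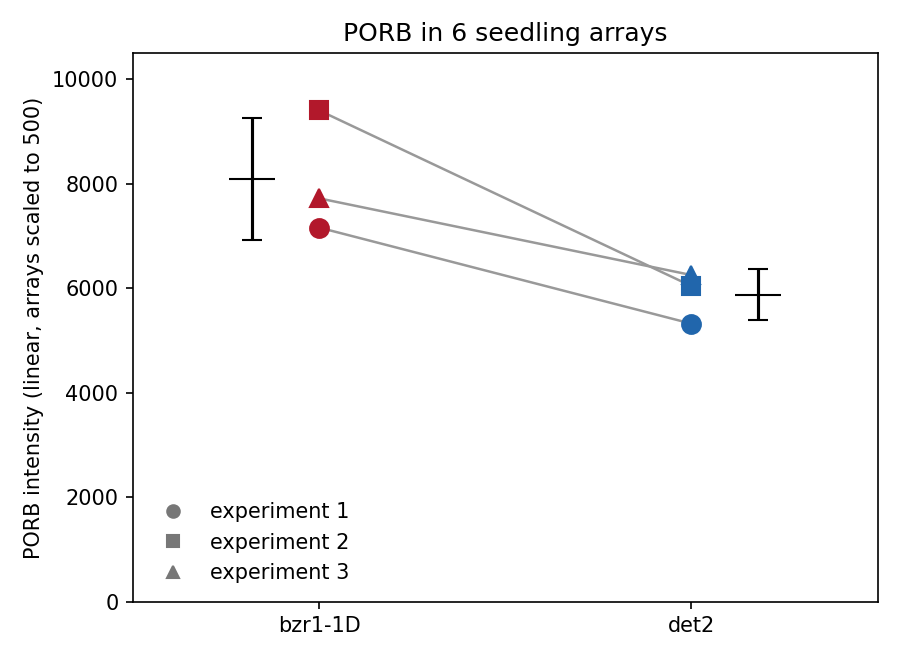
PORB intensity (linear scale, arrays scaled to a target of 500) in bzr1-1D and det2, with grey lines joining the arrays of an experiment and black bars for mean ± SD (n = 3). All 3 bzr1-1D arrays, from 7161 to 9402.5, lie above all 3 det2 arrays, from 5322 to 6253.

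In log2 of intensity plus 50, bzr1-1D minus det2 was 0.42, 0.63 and 0.30 in experiments 1 to 3. The mean difference was 0.45 ± 0.14 (SE, n = 3 pairs), with a 95% confidence interval of 0.09 to 0.81 by limma with the experiment as a block (unadjusted p = 0.0232). This SE, like every SE given here, is the moderated one of limma, which also draws on the variance of all probe sets. It is thus not the spread of the 3 differences alone, which had an SD of 0.17 for PORB. It did not pass over all probe sets (limma, Benjamini-Hochberg adjusted p = 0.70). No probe set did: 0 of 22746 (0%) had an adjusted p under 0.05, the smallest adjusted p was 0.565, and 1556 (6.84%) had an unadjusted p under 0.05, 624 (2.74%) of them higher and 932 (4.1%) lower in bzr1-1D. With so few arrays an exact test on PORB alone could not pass either. Turning the signs of the 3 paired differences gave an exact two-sided permutation p of 0.25, and permuting the genotypes over all arrays an exact two-sided permutation p of 0.10, each the smallest that its design allows.

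Measured against the other probe sets, the PORB difference lay toward the upper end, with many probe sets beyond it. A log2 difference at least as high was found for 1139 probe sets (5.01%), and one at least as large in either direction for 2342 (10.3%). An unadjusted p as small or smaller was found for 750 (3.30%). Across all probe sets, 12.4% stood higher in bzr1-1D each time and 3.74% had every bzr1-1D array above every det2 array, as PORB had. By experiment, 8.67%, 8.38% and 18.3% of probe sets had a log2 difference as high as that of PORB in experiments 1, 2 and 3. The gap of experiment 2, though the widest, thus had nearly the same rank among all probe sets as that of experiment 1, and log2 differences of all probe sets were more spread out there (SD 0.592, against 0.350 in experiment 1 and 0.469 in experiment 3). The mean level of PORB over both genotypes moved less between experiments (0.29 on the log2 scale from the lowest to the highest) than it differed between genotypes.

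**Figure D2:**
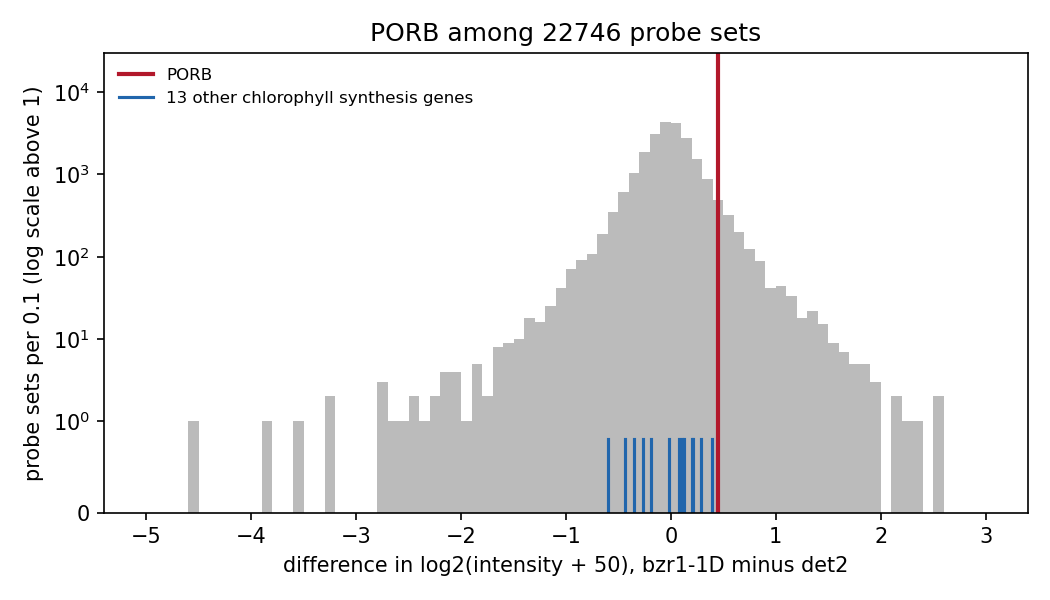
Differences in log2(intensity + 50), bzr1-1D minus det2, for 22746 probe sets in bins of 0.1 (count axis logarithmic above 1), with PORB as a red line and 13 other genes of chlorophyll synthesis as blue ticks. PORB, at 0.45, lies above the other 13 genes, and 5.01% of all probe sets are at least as high.

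RNA quality and tissue makeup were read on the same arrays. The 3′ over 5′ ratio of the GAPDH control, a sign of how complete the RNA was, was 0.757, 0.463 and 0.496 for experiments 1 to 3 of bzr1-1D, against 0.800, 0.461 and 0.474 for det2. The actin ratio of the newer control set was lower in bzr1-1D each time, at 1.24, 1.22 and 1.25, against 1.27, 1.38 and 1.325 in det2, but that of the older set was not, at 3.37, 3.14 and 8.18 in bzr1-1D, against 5.46, 5.30 and 3.66 in det2. Of 12 root markers only EXPA7 and EXPA18, expansins of root hairs, were measured. Their summed intensity was 331, 131 and 333 in bzr1-1D, below the 430.1, 549 and 419.7 in det2. Neither was at 0 on any array, but EXPA7 was dim in bzr1-1D of experiment 2, at 44.2, where 21.4% of probe sets lay below 50. Of 10 markers of green tissue RCA and PRK were measured, and their summed intensity was higher in bzr1-1D in experiment 1 (21301 against 19014 in det2) but lower in experiment 2 (15409 against 22245) and experiment 3 (15653 against 20514). The part of actin quality or root share in the PORB difference was not tested. In whole seedlings, fewer cells of a type and less RNA per cell cannot be told apart.

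The pathway that leads through PORB was measured at 14 of the 33 listed genes, PORB included. Of the other 13, 7 were higher in bzr1-1D and 6 were lower, with a median log2 difference of 0.08, against -0.01 over all probe sets. None passed over all probe sets (limma, adjusted p from 0.711 to 0.992). GSA1 and HEMA2, in opposite directions, had an unadjusted p under 0.05 by limma, as 6.84% of all probe sets had. Direction changed between experiments for 10 of the 13. That was the usual case, since only 12.4% of all probe sets were higher and 15.5% lower in bzr1-1D in all 3 experiments. PORB had the highest mean difference of the 14. It was the only 1 of the 14 whose bzr1-1D arrays all lay above the det2 arrays, against 3.74% of all probe sets. Both are a description and not a test of PORB against its pathway.

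The early steps make 5-aminolevulinic acid from glutamyl-tRNA and join it into porphyrin rings. HEMA2 encodes a glutamyl-tRNA reductase, the entry enzyme of the pathway, in a form expressed more widely than in green tissue. It had 209.6, 222 and 146.5 in bzr1-1D, against 387, 240.6 and 331 in det2, lower in bzr1-1D in every experiment and with no overlap between genotypes, as 5.58% of all probe sets had. The log2 difference was -0.60 ± 0.21 (SE, n = 3 pairs; limma, unadjusted p = 0.0376, adjusted p = 0.711), but only -0.09 in experiment 2, where PORB differed most. The third family member, HEMA3, was dim, with 27.7 or less in bzr1-1D and 35.6 or less in det2.

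GSA1 encodes the aminotransferase that completes 5-aminolevulinic acid. Its intensity was 1942, 2667 and 2703.5 in bzr1-1D, against 1355, 2362 and 1887 in det2. It was higher in bzr1-1D in each experiment, by 0.50, 0.17 and 0.51 on the log2 scale, though the genotypes overlapped, with the det2 array of experiment 2 above the bzr1-1D array of experiment 1. The gap of GSA1 was smallest in experiment 2, where that of PORB was largest. The mean log2 difference was 0.39 ± 0.14 (SE, n = 3 pairs; limma, unadjusted p = 0.0413, adjusted p = 0.712). HEMA2 and GSA1 act at successive steps, and their differences lay on opposite sides of 0.

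Between 5-aminolevulinic acid and protoporphyrin the measured genes showed no steady difference. HEMB1, an aminolevulinate dehydratase, had 3348.5, 3444 and 3394 in bzr1-1D, against 2732, 3741 and 3947 in det2, so the bzr1-1D arrays lay closer together than the det2 arrays. The mean log2 difference of HEMB1 was -0.01 ± 0.16 (SE, n = 3 pairs). The uroporphyrinogen decarboxylases HEME1 and HEME2 had 0.21 ± 0.28 and 0.08 ± 0.18 (SE, n = 3 pairs), and both were higher in bzr1-1D in experiments 1 and 3 and lower in experiment 2. The dimmer HEMB2 and HEMF2, annotated as further copies of the dehydratase and of coproporphyrinogen oxidase, had mean log2 differences of -0.36 and 0.10 and likewise changed direction.

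In the magnesium branch, which is dedicated to chlorophyll, CHLI2 encodes a subunit of magnesium chelatase and CHLM the methyltransferase that acts on magnesium protoporphyrin. CHLM had 4629.9, 2913 and 4277 in bzr1-1D, against 2878, 3243 and 3406 in det2. Its log2 difference of 0.28 ± 0.20 (SE, n = 3 pairs) came from experiments 1 (0.68) and 3 (0.32), with experiment 2 at -0.15. CHLI2 followed the same course, with 0.60, -0.45 and 0.22. PORB acts after both and was higher in bzr1-1D in the experiment in which both were lower.

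Directly after PORB the phytyl chain is added, and CHLP (AT1G74470) encodes the geranylgeranyl reductase that supplies it. CHLP had 11278.5, 8648 and 8067 in bzr1-1D, against 10409.6, 7237 and 6901 in det2, higher in bzr1-1D in each experiment but by little, with a log2 difference of 0.20 ± 0.12 (SE, n = 3 pairs; limma, unadjusted p = 0.175, adjusted p = 0.781). Of the 14 genes, PORB, GSA1 and CHLP were the ones higher in bzr1-1D in all 3 experiments, against 12.4% of all probe sets, and HEMA2 the 1 lower in all 3, against 15.5%. LIL3:1 and LIL3:2, light-harvesting-like proteins that hold the reductase in the membrane, had log2 differences of -0.19 ± 0.25 and -0.44 ± 0.25 (SE, n = 3 pairs), and both were at their lowest in experiment 2, at -0.79 and -1.09.

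**Figure D3:**
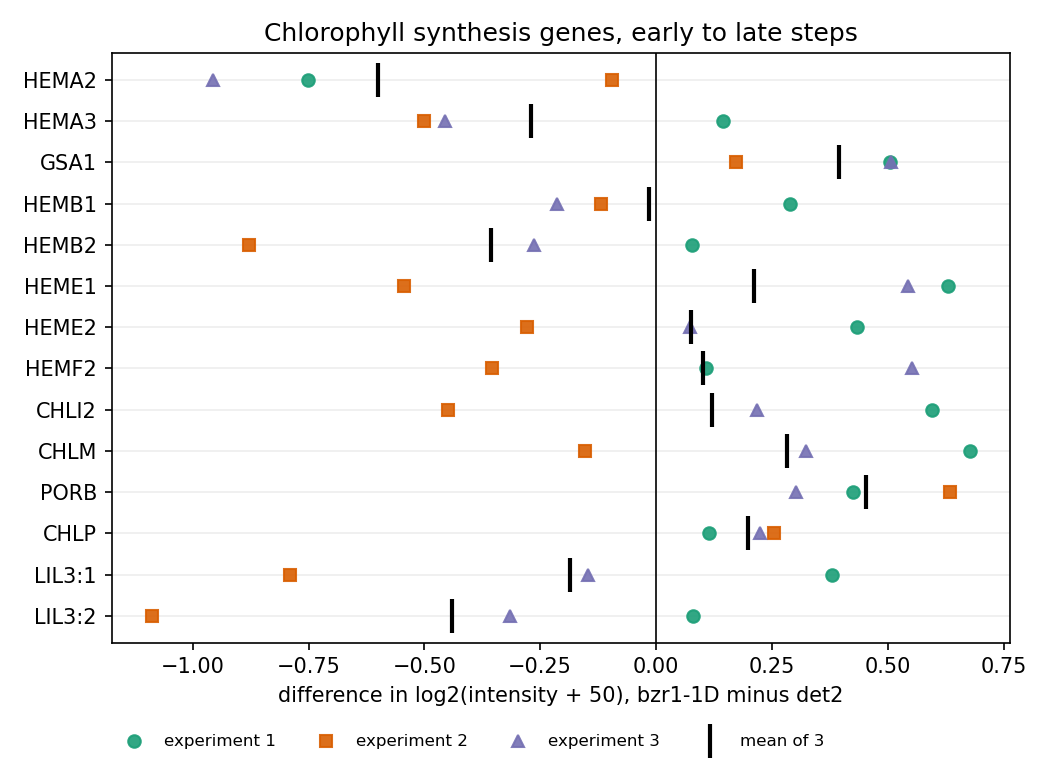
Differences in log2(intensity + 50), bzr1-1D minus det2, for the 14 measured genes of chlorophyll synthesis from early (top) to late steps, by experiment (coloured symbols) and as the mean of the 3 (black bar). In experiment 2 PORB, at 0.63, is above the other 13 genes, 11 of which are below 0.

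The experiments were unlike each other in how PORB stood to its pathway. In experiment 1, 12 of the other 13 genes were higher in bzr1-1D, with a median log2 difference of 0.29, and 5 of them exceeded PORB. In experiment 2, 2 of the 13 were higher and 11 lower, with a median of -0.36, and 0 exceeded PORB, which was 0.99 above that median. In experiment 3, 7 were higher and 6 lower, with a median of 0.07, and 4 exceeded PORB. The median over all probe sets stayed between -0.03 and 0.01 in these experiments. PORB thus kept its direction, as GSA1, CHLP and HEMA2 did, while the median of the other 13 genes did not. No test was made of PORB against the other genes.

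Of the genes that take up or remove the product, NOL, a chlorophyll b reductase of chlorophyll breakdown, was the only 1 of 10 breakdown genes measured. It had 832, 482 and 773 in bzr1-1D, against 524, 430.3 and 505.5 in det2. NOL was higher in bzr1-1D in each experiment, by a mean log2 difference of 0.44 ± 0.16 (SE, n = 3 pairs; limma, unadjusted p = 0.0383, adjusted p = 0.712), about the size of that of PORB, although the genotypes overlapped.

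Chlorophyll-binding antenna proteins were measured at 3 of 23 genes, the LHCB4 copies (CP29, a minor antenna of photosystem II), and all 3 had a negative mean. LHCB4.1 had nearly equal means, with 15559, 12803.5 and 11144.5 in bzr1-1D, against 15368, 12448 and 11675 in det2, a log2 difference of -0.0029 ± 0.12 (SE, n = 3 pairs), which was 0.08 after quantile normalization. LHCB4.2 had -0.33 ± 0.17 (SE, n = 3 pairs) and was lower in bzr1-1D in each experiment, in experiment 1 by less than 0.01. LHCB4.3 swung from 1.17 in experiment 1 to -2.17 in experiment 2 and -1.05 in experiment 3. Without experiment 2 the median of the 3 was -0.02, against -0.33 with all experiments, and LHCB4.3 itself was 0.06 against -0.68.

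Photosystem subunits of the nuclear genome, measured at 4 of 22 genes, had mean differences between -0.07 and 0.14. PSAE-1, of the stromal side of photosystem I, had the highest mean of them, 0.14 ± 0.13 (SE, n = 3 pairs), and was higher in bzr1-1D in each experiment. PSAN, PSBW and PSBY had mean log2 differences of 0.02, -0.01 and -0.07, and the sign of PSBW turned, to 0.0044, after quantile normalization. Carbon fixation was measured at 3 of 14 genes. The Rubisco activase RCA, phosphoribulokinase PRK and sedoheptulose bisphosphatase SBPASE had mean log2 differences of -0.24 ± 0.16, -0.25 ± 0.24 and -0.32 ± 0.30 (SE, n = 3 pairs). Each was higher in bzr1-1D in experiment 1 and lower in experiments 2 and 3.

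PORB lay above the median of these 10 antenna, photosystem and carbon fixation genes in every experiment. Their median log2 difference was 0.09, -0.34 and -0.22 in experiments 1, 2 and 3, and PORB lay 0.33, 0.98 and 0.53 above it, on average 0.61 ± 0.33 (SD, n = 3 experiments). In experiment 1, 2 of the 10 (LHCB4.3 at 1.17 and SBPASE at 0.44) exceeded PORB, and 0 did in experiments 2 and 3. None of the 10 had an unadjusted p under 0.05 by limma. This grouping was made after the values were seen, so the gap is a description with no test, and it does not say which of them changed.

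**Figure D4:**
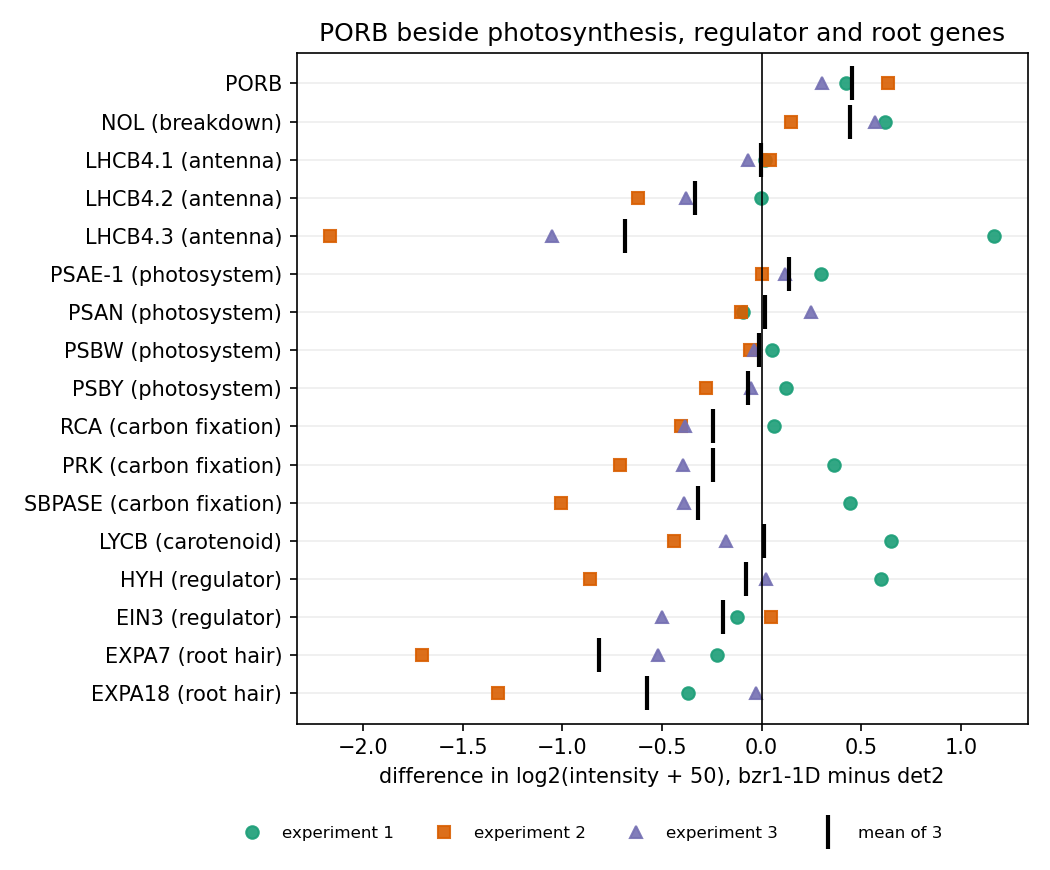
Differences in log2(intensity + 50), bzr1-1D minus det2, by experiment (coloured symbols) and as the mean of the 3 (black bar) for PORB and the 16 other measured genes outside chlorophyll synthesis. PORB, NOL and PSAE-1 lie above 0 in all 3 experiments, at means of 0.45, 0.44 and 0.14. SBPASE, PRK, LHCB4.3, RCA, LYCB, PSBY and PSBW run from positive values in experiment 1 to negative ones in experiments 2 and 3.

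Among regulators of greening, 2 of 29 genes were measured and neither had an unadjusted p under 0.05. HYH, a bZIP factor related to HY5 that promotes light-driven development, had 451, 149 and 300.3 in bzr1-1D, against 280.1, 312 and 295 in det2, with log2 differences of 0.60, -0.86 and 0.02. EIN3, the ethylene-response factor, had 1463, 1778.5 and 1465 in bzr1-1D, against 1595.5, 1719 and 2093 in det2, a mean log2 difference of -0.19 ± 0.16 (SE, n = 3 pairs). The lycopene cyclase LYCB of carotenoid synthesis, the 1 of 10 isoprenoid genes measured, had a mean of 0.01 ± 0.25 (SE, n = 3 pairs), which was -0.0085 after quantile normalization. The 8 haem and bilin genes listed are not analysed here. Of all 30 measured genes in these lists, PORB included, 12 lay above 0 and 18 below it, and 0 passed over all probe sets. PORB, GSA1, HEMA2 and NOL, 4 of the 30 (13.3%), had an unadjusted p under 0.05 by limma, against 6.84% of all probe sets. HEMA2 was lower in bzr1-1D and the others higher. That share counts PORB itself, and PORB and the lists were chosen with earlier results of these data known, so it is a description only. With no replicate block the unadjusted p of GSA1 was 0.15 and that of NOL 0.0859.

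The root hair expansins ran against PORB in every experiment. EXPA7, a wall-loosening protein of growing root hairs, had 168.9, 44.2 and 136.9 in bzr1-1D, against 205.7, 257.5 and 218 in det2, a log2 difference of -0.82 ± 0.32 (SE, n = 3 pairs). EXPA18, of the same cells, had -0.57 ± 0.28 (SE, n = 3 pairs) and the gap was -0.03 in experiment 3. Both gaps were widest in experiment 2, as that of PORB was, and leaving that experiment out gave -0.37 for EXPA7 and -0.20 for EXPA18. The unadjusted p by limma was 0.0543 for EXPA7 and 0.10 for EXPA18. That of EXPA7 was 0.0404 with no replicate block, 0.0313 with a random block and 0.0438 over probe sets with a mean intensity of at least 100.

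The genes most like PORB over the arrays were ranked by Pearson's r of log2 of intensity plus 50 with PORB over 6 arrays. Eligible were 7260 single-gene probe sets that averaged an intensity of at least 100 and had an SD over the arrays of at least 0.5 times that of PORB, which was 0.29. An r of 0.9 or more was reached by 44 of them (0.606%), and 74 had an r of -0.9 or below. The arrays share genotype and experiment in pairs, so r describes likeness in these arrays and no more. The 10 highest had r from 0.946 to 0.980 and mean log2 differences from 0.20 to 0.90, and were AT3G18295, AT2G20420, AT3G13940, AT1G12810, AT5G50860, AT5G56900, AT4G33550, AT5G11000, AT1G14730 and AT5G55180. No gene of the lists was among them. AT5G56900 was nearest to PORB in the size of its difference, with 737, 834 and 699 in bzr1-1D, against 441, 543 and 567 in det2, a log2 difference of 0.51 ± 0.14 (SE, n = 3 pairs; limma, unadjusted p = 0.0184, adjusted p = 0.70). AT4G33550 had the widest gap, with 447, 887 and 404 in bzr1-1D, against 242, 275 and 295 in det2. For 9 of the 10 the gap was largest in experiment 2 and for 9 it was smallest in experiment 3, an order they were ranked for. Their genotype differences and p values are tied to the ranking too, since PORB itself split by genotype, and are no separate evidence. All 44 genes with an r of 0.9 or more were higher in bzr1-1D.

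**Figure D5:**
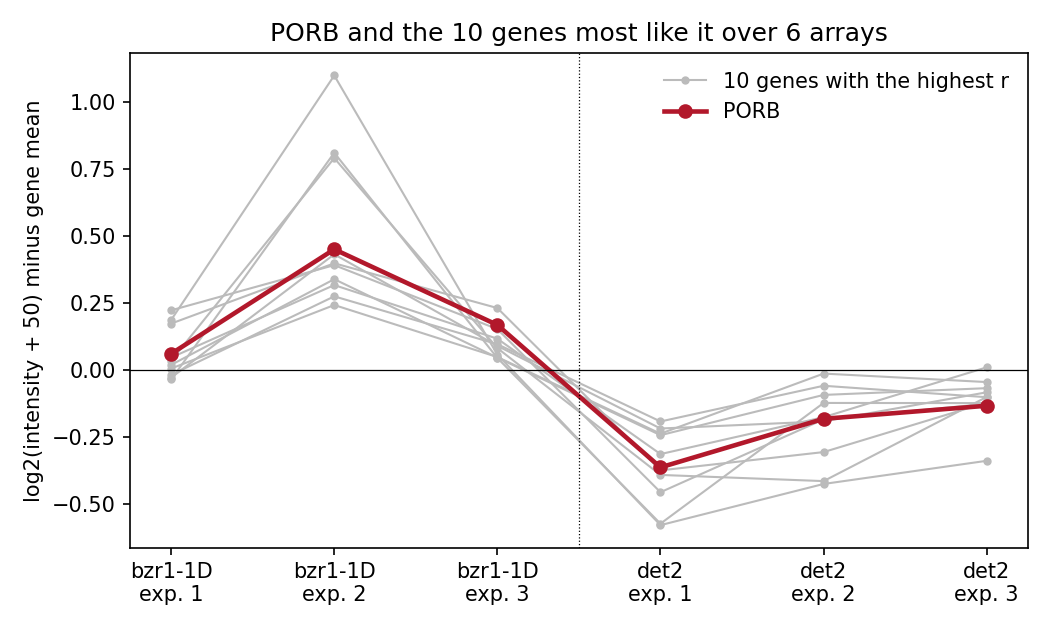
Log2(intensity + 50) minus the mean of each gene over 6 arrays, for PORB (red) and the 10 genes with the highest Pearson's r with it (grey), bzr1-1D arrays left of det2 arrays. PORB is highest in bzr1-1D of experiment 2 and lowest in det2 of experiment 1.

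The genes beside PORB on chromosome 4 stood on both sides of 0. Of the 5 nearest measured genes on either side, 7 were higher in bzr1-1D, 3 were lower and 0 passed over all probe sets. The 7 include dim genes whose sign says little, such as AT4G27530, at 31.1 or less on every array, and VIIIB, at 71.5 or less. Among all probe sets 47.6% were higher in bzr1-1D. AT4G27435, directly before PORB, had 323, 345 and 447 in bzr1-1D, against 244, 306 and 291 in det2, a log2 difference of 0.34 ± 0.14 (SE, n = 3 pairs; limma, unadjusted p = 0.0629, adjusted p = 0.730). AT4G27450, directly after it, went the other way at -0.71 ± 0.22 (SE, n = 3 pairs; limma, unadjusted p = 0.0249, adjusted p = 0.701), and it was far more variable between experiments, with 1793, 749 and 3855 in bzr1-1D, against 2958.5, 888 and 8862 in det2. The other 8 changed direction between experiments, as most probe sets did. Only 12.4% of all probe sets were higher and 15.5% lower in bzr1-1D in all 3 experiments.

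The PORB difference kept its direction with any experiment left out. It was 0.47 without experiment 1 (limma, unadjusted p = 0.0727), 0.36 without experiment 2 (unadjusted p = 0.10) and 0.53 without experiment 3 (unadjusted p = 0.0484). Without an offset it was 0.46 (unadjusted p = 0.0642). The adjusted p over all probe sets ran from 0.552 to 0.973 over all 12 alternatives, so no setting called PORB.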

How the data were processed

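The deposited table holds 1 linear intensity per probe set and array. Per the labels, the authors hybridised 15 µg of biotinylated cRNA to each ATH1 array and scaled it in GCOS 1.1 to a target of 500, and each array's mean trimmed by 2% at either end was 500.04. The later division by a percentile and by wild type in GeneSpring 7.0, also per the labels, is not part of the values used. Wild-type arrays were not used here.

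After leaving out 64 control probe sets of 22810, 22746 intensities per array were raised by 50 and log2-transformed, with no further scaling. Array medians lay between 212.75 and 221.4. The annotation gave 13513 probe sets 1 gene, 503 several and 8730 none, and 13436 matched a TAIR10.1 locus tag, which was used for names and gene order. The difference was tested with limma 3.58.1 in R 4.3.3, two-sided, with Benjamini-Hochberg adjustment over 22746 probe sets, and with the experiment as a block, since per the labels both genotypes were cultured together in each experiment. Every SE of a log2 difference is the moderated SE of this fit and can be wider or narrower than the spread of the 3 paired differences of that gene. These arrays are biological replicates, per the labels. Deviations from the genotype means correlated by 0.387, 0.08 and 0.373 within experiments 1, 2 and 3, and by -0.371 to 0.107 between them. The number of arrays limits the precision. Figures used matplotlib 3.10.9, and the fit was tested on simulated data.

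Named were PORB, the measured genes of 33 for chlorophyll synthesis, up to 4 of each other list, and the 10 genes most like PORB. The neighbours were taken by position. The 9 lists hold 161 genes, of which 30 had a single-gene probe set. PORB and the lists were chosen with earlier results of these data known. The mutated genes BZR1 and DET2 are not analysed here.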

Additional observations from a re-analysis of the deposited data

How the results depend on the processing

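All alternatives were planned. PORB stayed between 0.45 and 0.48 on the log2 scale with an offset of 16, no offset, quantile normalization, centred arrays, robust or trended eBayes, a mean intensity of at least 100 and other uses of the block, and between 0.36 and 0.53 when an experiment was left out. Its limma adjusted p was 0.70 with the experiment as a replicate block, 0.941 with no replicate block and 0.567 where the block was a random effect. By limma 0 probe sets had an adjusted p under 0.05 with the block (1556 unadjusted), 1 did with no replicate block and 1 with a random block, and 0 did without any experiment. The 1 was AT1G20390 (adjusted p = 0.032 and 0.0155), named after its values were seen. The cause was not tested. The block changed no other call by adjusted p. Unadjusted p values by limma did move across 0.05 with no replicate block: GSA1 had 0.15 (0.0413 with it), NOL 0.0859 (0.0383) and EXPA7 0.0404 (0.0543). Of the genes most like PORB, AT5G55180 had 0.0827 (0.0365 with the block) and AT1G14730 0.0397 (0.0533). With a random block GSA1, NOL and EXPA7 had 0.0923, 0.0513 and 0.0313. AT5G55180 and AT1G14730 had 0.0504 and 0.0297 there, and AT3G13940, also most like PORB, had 0.0465 (0.0772 with the block).

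The median log2 difference of the 14 chlorophyll synthesis genes was 0.09, and -0.11 to 0.21 on leaving out an experiment (lowest without experiment 1), and that of the 3 antenna genes ran from -0.50 to -0.02. Of the other genes followed, 3 changed sign under another scaling: LHCB4.1 (0.0754 with quantile normalization and 0.00397 with centred arrays), PSBW (0.00438) and LYCB (-0.00848), both with quantile normalization. When an experiment was left out, 13 did: HEMB1 (-0.17 to 0.0854), HEME2 (-0.10 to 0.25), HEMF2 (-0.12 to 0.33), CHLI2 (-0.12 to 0.41), LIL3:1 (-0.47 to 0.12), LHCB4.1 (-0.0246 to 0.0291), LHCB4.3 (-1.61 to 0.0575), PSAN (-0.0967 to 0.0795), PSBW (-0.0464 to 0.0069), PSBY (-0.17 to 0.0350), SBPASE (-0.70 to 0.0270), LYCB (-0.31 to 0.24) and HYH (-0.42 to 0.31). The cause was not tested.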

Other observations

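A search of gene names for chlorophyll, photosystem or light harvesting, made after the data were seen, added 2 measured genes outside the lists. PIFI, a chloroplast protein named for the rise of chlorophyll fluorescence after illumination, had 2035, 1971 and 1799.7 in bzr1-1D, against 2528, 2955 and 3615 in det2, in experiments 1, 2 and 3. It ran opposite to PORB, lower in bzr1-1D in each experiment with no overlap between genotypes, as 5.58% of all probe sets had, and its log2 difference was -0.62 ± 0.18 (SE, n = 3 pairs; limma, unadjusted p = 0.0192, adjusted p = 0.70). HCF101, a chloroplast protein needed for iron-sulphur clusters of photosystem I, had a log2 difference of 0.03 ± 0.19 (SE, n = 3 pairs), with 0.38 in experiment 1 and -0.36 in experiment 2.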
